A study of Mus musculus with 17 samples.

Results

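The neuronal chromatin of male mice was compared with that of females in proestrus, in animals that had not received cocaine and on chromosomes 1 to 19. The measurement was ATAC-seq, in which a transposase cuts open DNA and inserts sequencing adapters. Peaks of the 3 male control libraries and the 3 proestrus control libraries were merged where they overlapped by 1 bp or more, which gave 217775 regions. Of these, 18271 regions were called in all 3 libraries of one group and in none of the other. The 15504 that were called in the male controls are named male-only regions below, and the 2767 called in the proestrus controls are named proestrus-only regions. These names describe a pattern of peak calls at this depth, not the absence of reads where no peak was called.

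The series holds 17 libraries from C57BL/6 mice (C57BL/6J in the study's methods) of 52 to 54 days, and each library pooled the nucleus accumbens of 3 animals. Nuclei were sorted on NeuN, a protein of neuronal nuclei, so that the libraries describe neurons as a mixture and not as single types. The control mice had received no cocaine, and the cocaine mice of the reference libraries were taken 1 h after 10 mg/kg, injected intraperitoneally. Proestrus, the high-estrogen stage of the cycle, was read from vaginal smears. Sex, estrous stage and the preparation of each group cannot be told apart in this comparison, and neither can fewer nuclei of a type and less open chromatin per nucleus.

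Most neurons of the nucleus accumbens are medium spiny neurons, which use GABA and express either the dopamine receptor gene Drd1 or Drd2. The cortex and other regions near it hold glutamatergic neurons instead, whose identity rests on transcription factors such as Neurod6, Emx1 and Tbr1. Open chromatin far from gene starts often marks enhancers and differs more between cell types than the promoters of widely used genes do. Estrogen acts through the nuclear receptors encoded by Esr1 and Esr2, which bind DNA directly or through partners such as AP-1, the Fos and Jun dimer.

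The stretches of mm10 sequence below, read from RefSeq GRCm38.p6, are picked examples of the 2 classes and not typical members. Each covers 300 bases around the summit of a separating region on the forward strand. Capitals mark CAGATG or its reverse complement, an E-box that NeuroD factors bind, and the cyclic AMP response element TGACGTCA. The first 3 are male-only regions.

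Distal region 89.0 kb from the start of Neurod6, chr6:55592147-55592446: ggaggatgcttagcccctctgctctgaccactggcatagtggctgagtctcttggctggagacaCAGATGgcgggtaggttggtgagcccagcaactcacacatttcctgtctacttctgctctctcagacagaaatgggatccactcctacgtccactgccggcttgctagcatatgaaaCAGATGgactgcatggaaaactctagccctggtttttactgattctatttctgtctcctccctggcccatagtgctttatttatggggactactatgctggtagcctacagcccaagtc

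Promoter of Neurod6, chr6:55681059-55681358: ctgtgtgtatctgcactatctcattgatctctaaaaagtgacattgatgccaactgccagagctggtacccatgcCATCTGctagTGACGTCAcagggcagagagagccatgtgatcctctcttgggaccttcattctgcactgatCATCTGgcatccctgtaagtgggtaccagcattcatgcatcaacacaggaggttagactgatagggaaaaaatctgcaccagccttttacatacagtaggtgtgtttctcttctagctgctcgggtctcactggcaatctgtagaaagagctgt

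Strongest region called in all 5 male libraries and in no female library, chr8:41713649-41713948: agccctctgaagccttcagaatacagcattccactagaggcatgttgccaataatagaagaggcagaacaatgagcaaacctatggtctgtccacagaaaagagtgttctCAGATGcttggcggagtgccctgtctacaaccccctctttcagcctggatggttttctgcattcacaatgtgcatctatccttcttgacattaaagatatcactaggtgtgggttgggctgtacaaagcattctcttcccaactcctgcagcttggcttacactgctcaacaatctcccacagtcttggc

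The other 2 are proestrus-only regions, and neither holds these motifs.

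Promoter of Grin3b, chr10:79970752-79971051: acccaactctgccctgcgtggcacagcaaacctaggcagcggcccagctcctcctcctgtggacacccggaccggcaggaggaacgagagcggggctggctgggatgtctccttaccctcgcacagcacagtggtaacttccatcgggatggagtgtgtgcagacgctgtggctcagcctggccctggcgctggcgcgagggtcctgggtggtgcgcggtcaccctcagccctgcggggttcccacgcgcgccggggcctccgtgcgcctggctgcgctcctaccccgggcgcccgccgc

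Region 10.8 kb from the start of Gal3st3, chr19:5308952-5309251: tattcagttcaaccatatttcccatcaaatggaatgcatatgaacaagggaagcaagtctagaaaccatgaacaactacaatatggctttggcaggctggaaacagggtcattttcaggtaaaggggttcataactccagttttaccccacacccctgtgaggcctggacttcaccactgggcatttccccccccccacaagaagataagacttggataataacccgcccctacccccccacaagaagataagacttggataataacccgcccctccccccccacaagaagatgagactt

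The Grin3b stretch is GC-rich at 71.0%. The motifs were searched in the 200 bp around the summit of every region, and those shares are given with the sequence content further on.

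The 6 control libraries matched their labels for sex, while the estrous stage was not checked. Diestrus libraries were grouped by their titles, and 1 diestrus cocaine library had no stage in its other labels. A peak at the start of Xist, the gene that silences one X chromosome in females, was present in each of the 3 proestrus controls and in none of the 3 male controls. Over the first 20 Mb of chromosome Y, 5 to 8 peaks were called in each male control and 0 in each proestrus control. Male control libraries held 148195, 132654 and 146714 autosomal peaks and proestrus control libraries held 122757, 121156 and 131702. The groups did not overlap, and the difference of 17316 peaks between the means (142521 ± 8577 and 125205 ± 5683, SD, n = 3 each) gave p = 0.1 in the two-sided exact permutation test, which is the smallest p that 3 against 3 libraries allow. The median fold enrichment of a peak's summit over background was higher in the male controls, at 3.40 to 3.72 against 2.94 to 3.13 (exact permutation p = 0.1). The background pileup, a measure of relative depth, ran from 6.26 to 8.11 reads in the male and from 7.62 to 9.55 reads in the proestrus controls (exact permutation p = 0.2). The group with more calls thus had the higher fold enrichment and a background pileup that overlapped the other group's, and the part of these library differences in the counts below was not tested.

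**Figure D1:**
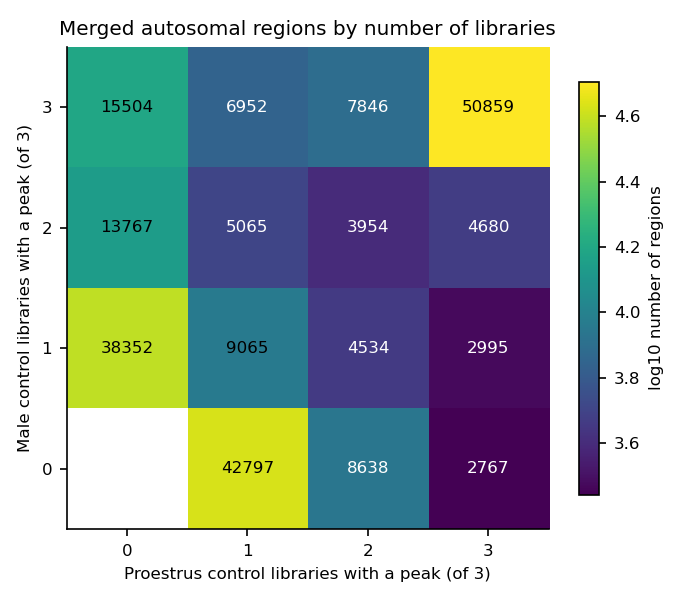
Number of merged autosomal regions (printed in each cell, colour on a log10 scale) by how many of the 3 male control libraries (vertical axis) and how many of the 3 proestrus control libraries (horizontal axis) had a peak there. The top left cell holds the 15504 male-only regions and the bottom right cell the 2767 proestrus-only regions.

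The 127561 regions called in 2 or more libraries of a group are named the tested regions. Male-only regions made up 12.2% of them, proestrus-only regions 2.17%, and both together 14.3%. All 6 libraries shared 50859 regions. Just outside the rule lay 6952 regions called in all 3 male and 1 proestrus library and 13767 called in 2 male and no proestrus libraries. On the other side were 2995 regions called in all 3 proestrus and 1 male library and 8638 called in 2 proestrus and no male libraries, as the grid of calls shows. Libraries of one group shared a fraction of 0.716 to 0.832 of their regions, measured as the overlap of called regions over their union, and libraries of different groups shared 0.538 to 0.598. The male-only count stayed between 12714 and 16043 when peak strength, peak number or the merging of peaks was changed. The proestrus-only count depended on the peak threshold: it was 762 when only peaks with a −log10 q of 5 or more were kept, and 3830 when each library was held to its 121156 strongest peaks.

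The male-only regions reached higher fold enrichments than the proestrus-only ones. Taking for each region the lowest of the 3 values that called it, the median was 3.17 in the male-only regions and 2.53 in the proestrus-only regions. A lowest fold enrichment of 5 or more was found in 968 male-only and 8 proestrus-only regions. The strongest male-only region (chr3:18668834-18669487) lay between genes, 426 kb from the start of Cyp7b1, an enzyme of oxysterol metabolism. Its fold enrichment was 10.96, 10.47 and 10.98 in the male controls, from summit pileups of 85, 75 and 99 reads, and no proestrus or diestrus control had a peak there. Proestrus cocaine libraries 1 and 4 called it weakly, at 3.00 and 2.93. The next in strength lay 57.1 kb from Lama4, a laminin gene (chr10:38908136-38908840), with 12.1, 11.3 and 10.2. It too was called in proestrus cocaine 1 and 4 alone among the other libraries, at 2.80 and 3.04. The distal Neurod6 region (chr6:55591999-55592744) reached 10.1, 9.64 and 10.3 and had no peak in any of the 14 other libraries. The same held for a region in an intron of Cenpu, a centromere protein gene, with 11.1, 9.78 and 9.99, and for a region 236 kb from Adgrl3, a latrophilin adhesion receptor gene, with 10.1, 9.50 and 10.8. Of the 10 strongest male-only regions, 8 were intergenic and 2 intronic, and none lay at a promoter.

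Promoters, taken as 1 kb on each side of the start of a protein-coding gene, differed less often than distal regions. Of 20807 genes, 12622 had a promoter called in 2 or more libraries of a group and 11403 had one called in all 6. Male-only promoters numbered 233 (1.85% of those tested) and proestrus-only promoters 33 (0.261%). A further 138 promoters were called in all male and 1 proestrus control, and 69 in all proestrus and 1 male control.

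**Figure D2:**
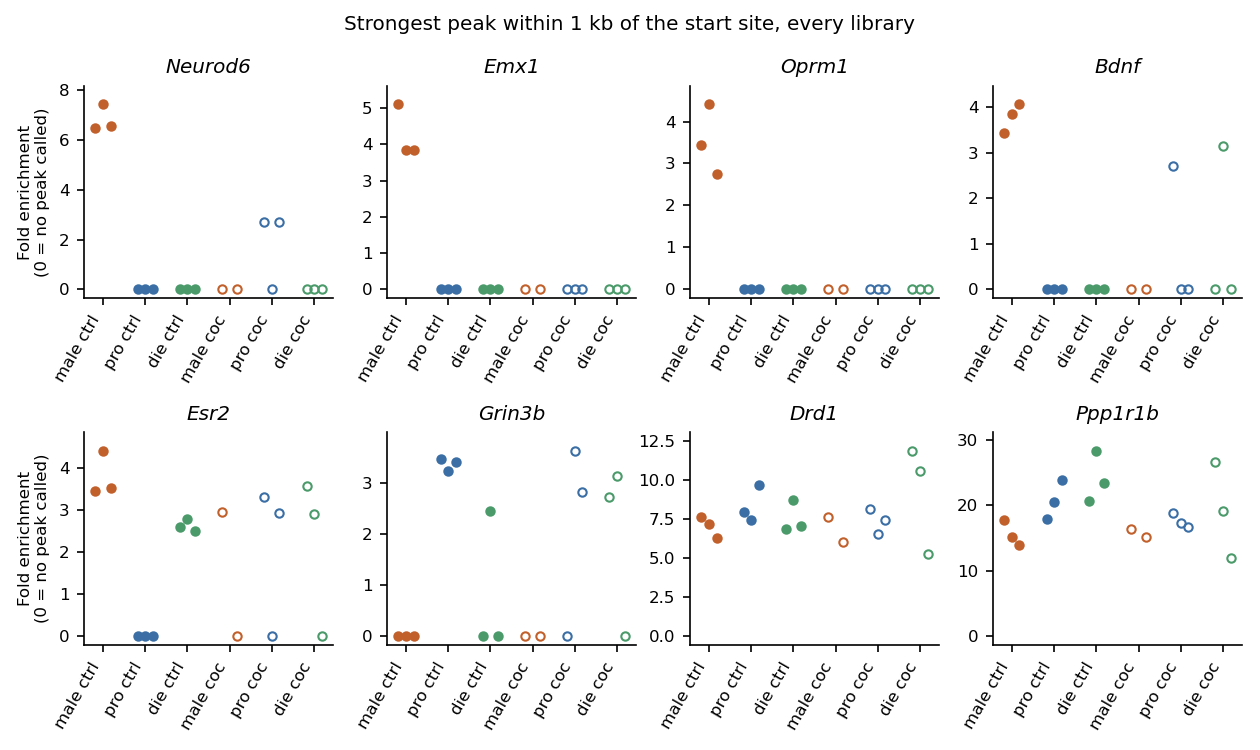
Fold enrichment of the strongest peak within 1 kb of the start of 8 genes (vertical axes, 0 where no peak was called) in every library of the 6 groups (horizontal axes; filled points are controls, open points cocaine, ctrl and coc in the labels, with pro for proestrus and die for diestrus). Neurod6, Emx1, Oprm1, Bdnf and Esr2 had a peak in all 3 male controls and no proestrus control, Grin3b the reverse, and Drd1 and Ppp1r1b had one in every library.

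The strongest male-only promoter was that of Lor, a gene of the epidermis, with 6.88, 8.68 and 7.03 in the male controls and a peak in 8 of the 11 libraries outside the comparison. Some transcription factor genes of cortical excitatory neurons stood among the male-only promoters, and others did not. In the wider list of 14 cortical genes described below, drawn up after the values were seen, 3 promoters were male-only. A further 5 were called in all 6 libraries and 4 in none. Neurod6 had a promoter fold enrichment of 6.50, 7.44 and 6.59 in the male controls, and no peak in the proestrus controls, the diestrus controls or the male cocaine libraries. Proestrus cocaine 1 and 4 called it at 2.70 and 2.72, well below the male controls. Emx1, a homeobox gene of the developing cortex, had 5.10, 3.86 and 3.84 in the male controls and no peak in any of the other 14 libraries. Bhlhe22, a basic helix-loop-helix factor of cortical projection neurons, had 3.57, 4.54 and 5.05 there and was called within 1 kb of its start in 4 of the 11 libraries outside the comparison. Neurog2, which drives glutamatergic fate in progenitors, had 5.48, 3.99 and 5.82, and Nhlh1, a related factor, had 4.46, 4.68 and 4.39 and no peak in any other library. Neurod1 lay just outside the rule, with 6.88, 8.54 and 5.60 in the male controls and weak peaks in 2 proestrus controls at 2.85 and 2.94. Emx1, Bhlhe22, Neurog2, Nhlh1 and Neurod1 are named here after their values were seen.

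A few receptor and signalling genes were also among the male-only promoters, while the lists of glutamate receptors, GABA receptors and ion channels had 0 such promoters. Oprm1, the mu opioid receptor gene through which morphine acts, had a promoter peak of 3.44, 4.41 and 2.74 in the male controls and in no other library of the series. Its gene body and upstream 10 kb held 7 male-only regions of 24 tested. Bdnf, the brain-derived neurotrophic factor gene, had 3.44, 3.86 and 4.06 at its annotated start, no peak in the proestrus controls, and 3 male-only regions of 6. Cck, a neuropeptide gene of many cortical neurons, had 4.08, 3.17 and 4.61 and was also called in all 3 diestrus controls at 2.71 to 3.13. Htr2b, a serotonin receptor gene, had 3.06, 3.31 and 3.18. Cck and Htr2b were chosen after their values were seen.

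The list of steroid receptors and cofactors (21 genes) held 20 male-only (8.89%) and 5 proestrus-only (2.22%) regions of 225, beside 12.2% and 2.17% of all tested regions. Esr2, the estrogen receptor beta gene, had a promoter peak of 3.44, 4.41 and 3.51 in the male controls and none in the proestrus controls. All 3 diestrus controls were called at 2.49 to 2.79 and 1 of the 2 male cocaine libraries at 2.95. Its male-only promoter region was also called in 66.7% each of the proestrus cocaine and diestrus cocaine libraries. Esrrg, an estrogen-related orphan receptor gene, had 3.19, 2.75 and 2.41 at its promoter and 6 male-only regions of 22. Esr1, the main estrogen receptor gene in most tissues, was called at its promoter in 2 male controls and in no other library, and held 1 region of each class among 11. Pgr, the progesterone receptor gene and a classical estrogen target, was called in all 6 libraries. Its promoter had 5.86, 7.30 and 6.59 in the male and 3.27, 3.13 and 2.65 in the proestrus controls, a log2 difference of 1.12. Most promoters called in all 6 libraries were also higher in the male controls, 10201 of 11403, with a median log2 difference of 0.35. In this list 9 of the 11 such promoters were higher, with a median of 0.45. Cyp19a1, the aromatase gene that makes estrogen from androgen, held 1 tested region, which was male-only, with 3.569, 3.167 and 2.415 in the male controls. That region was also called in 66.7% each of the diestrus control, diestrus cocaine and proestrus cocaine libraries and in 50% of the male cocaine libraries.

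Proestrus-only promoters were weaker. Grin3b, which encodes a glycine-binding subunit of NMDA receptors, was called at 3.48, 3.25 and 3.41 in the proestrus controls. Of the libraries outside the comparison, 2 proestrus cocaine, 1 diestrus control and 2 diestrus cocaine libraries had a peak within 1 kb of the start and no male library did. Grin3b held 4 proestrus-only regions of 10. Htr1d, a serotonin autoreceptor gene, had 3.70, 3.13 and 3.32 in the proestrus controls and was also called in 2 diestrus controls and 2 cocaine libraries, 1 of proestrus and 1 of diestrus. Hsd17b1, whose enzyme converts estrone to estradiol, had 2.85, 3.13 and 2.84 and was also called in 1 diestrus control and 1 diestrus cocaine library. Asic3, an acid-sensing ion channel gene, had 3.06, 2.55 and 3.13, and Wnt1, a secreted signalling protein gene, had 3.06, 3.02 and 3.13. Htr1d, Hsd17b1, Asic3 and Wnt1 were chosen after their values were seen, and none of these 5 genes had a promoter peak in any male library.

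Marker lists of cell types differed in opposite directions. The 10 medium spiny neuron markers held 64 tested regions, of which 8 (12.5%) were proestrus-only and 0 male-only, which allows a share of up to 4.69%. The count of 8 was 2 when only peaks with a −log10 q of 5 or more were kept, 13 without male control 1 or proestrus control 3, and 15 without proestrus control 1. Those 8 lay in Rgs9 (4 of 19 regions), a striatal regulator of G protein signalling, in Adora2a (3 of 11), the adenosine receptor gene of Drd2 neurons, and in Drd1 (1 of 4). Of the 64 regions, 59 were called in each proestrus control (92.2%, Wilson 95% interval 83.0 to 96.6, counting error only), against 44, 31 and 40 in the male controls. These counts include the 8 proestrus-only regions by rule. All 64 regions were chosen by calls in the same 6 libraries, so the contrast is a description and not a test. Promoters of these genes were open in both groups: 10 of 10 were called in each proestrus control and 9 or 10 in the male controls, and their summed fold enrichment was 90.7 to 108 against 86.2 to 97.8. Ppp1r1b, which encodes a dopamine-regulated phosphatase inhibitor of these neurons, had 17.72, 15.15 and 13.94 in the male and 17.95, 20.54 and 23.89 in the proestrus controls. Over the 9 of these promoters called in all 6 libraries, the median difference in log2 fold enrichment (male minus proestrus) was −0.19, where the median over all 11403 promoters called in all 6 was 0.35. Penk, an enkephalin precursor gene, was 1 of 2 among the 9 that were higher in the male controls, where 10201 of the 11403 were.

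Cortical excitatory neuron markers went the other way. Their 5 genes held 21 tested regions, 7 of them male-only (33.3%) and 0 proestrus-only, which allows up to 14.3%. Among the 7 was the Neurod6 promoter. The male controls called 20, 15 and 17 of the 21 regions and the proestrus controls called 6, 8 and 6. These counts include the 7 male-only regions by rule and are likewise a description. The summed promoter fold enrichment of the 5 genes was 22.4 to 26.5 in the male and 11.9 to 12.9 in the proestrus controls. The male sums include the male-only Neurod6 promoter, which counts as 0 in the proestrus controls by rule. Over the 2 of these promoters called in all 6 libraries, the median difference in log2 fold enrichment (male minus proestrus) was 0.50. Over all 11403 promoters called in all 6 it was 0.35, with quartiles of 0.16 and 0.53. Slc17a7, the vesicular glutamate transporter gene of cortical neurons, was called in all 6 at 15.9, 11.4 and 14.7 against 8.55, 9.51 and 10.4. Slc17a6, the transporter of thalamic and other subcortical glutamatergic neurons, had no promoter peak in any of the 6. The male cocaine libraries called 3 of the 21 regions each, the fewest of all groups. A wider list of 14 such genes, partly the same and drawn up after these values were seen, held 16 male-only (23.5%) and 0 proestrus-only regions of 68, among them 4 of 7 regions at Rorb, a nuclear receptor gene of layer IV neurons.

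Astrocyte markers held 5 male-only regions of 11, 4 of them in Aldh1l1, a folate enzyme gene, and 1 in Slc1a3, a glutamate transporter gene. The male controls called 11, 10 and 11 of these regions and the proestrus controls called 3, 5 and 4, counts that include the 5 male-only regions by rule. Yet the promoters of Aldh1l1, Slc1a3 and Aqp4 had no peak in any of the 6 libraries, and Gfap alone was called in all 6. Oligodendrocyte markers held 3 male-only regions of 48, and Mag and Sox10 had no tested region. Microglia markers held 1 of 22, and no microglial or endothelial marker promoter was called in any of the 6 libraries. The interneuron markers held 1 male-only region of 12, at Vip, and the endothelial markers 1 proestrus-only region of 8, at Pecam1. The part that a different mix of nuclei had in the separating regions was not tested.

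**Figure D3:**
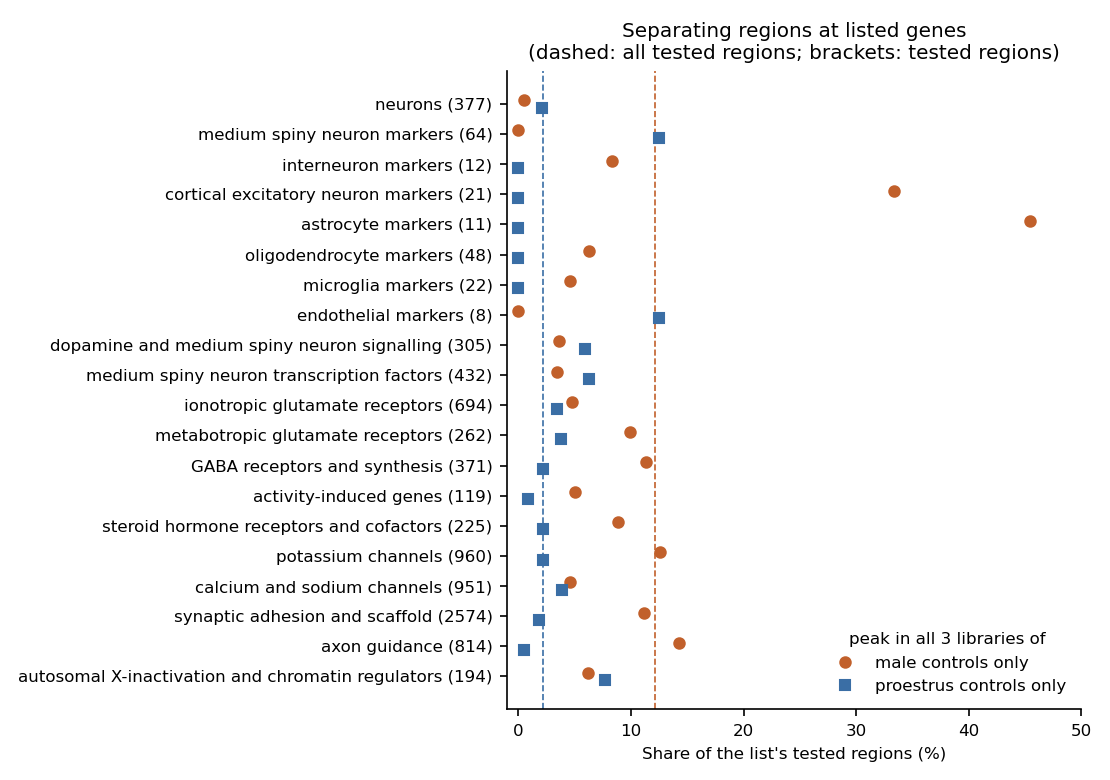
Share of tested regions (horizontal axis, percent) that were male-only (circles) or proestrus-only (squares) in the gene body and upstream 10 kb of each of 20 gene lists, with the number of tested regions in brackets and the share over all tested regions as dashed lines (12.2% and 2.17%). Astrocyte and cortical excitatory neuron markers lie farthest to the right for male-only regions, and medium spiny neuron and endothelial markers for proestrus-only regions.

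Transcription factors of medium spiny neurons carried more proestrus-only regions than the background share. The 18 genes held 27 proestrus-only (6.25%) and 15 male-only (3.47%) regions of 432. Foxp1, a forkhead factor of striatal projection neurons, held 11 of 185, all intronic, and Meis2, a homeobox factor of the striatum, held 9 of 79 and no male-only region. The Meis2 regions were called in proestrus cocaine libraries in 74.1% of cases, in diestrus cocaine libraries in 85.2%, in diestrus controls in 40.7% and in male cocaine libraries in 5.56%. Rarb, a retinoic acid receptor gene, held 5 proestrus-only and 3 male-only regions of 61. Ebf1, a factor of Drd1 neurons, and Foxp2 had male-only regions instead, 4 of 18 and 3 of 33. Dopamine and medium spiny neuron signalling genes as a whole held 18 proestrus-only (5.90%) and 11 male-only (3.61%) regions of 305, and 7 of those 11 lay in Oprm1. Rbfox3, which encodes the NeuN protein used for the sort, held 5 proestrus-only and 0 male-only regions of 142. Its promoter was called at 8.41, 5.78 and 6.37 in the male and at 12.04, 9.05 and 12.42 in the proestrus controls. The neuron list's other markers went the other way, with promoter means of 25.5 against 18.2 for Snap25 and 25.9 against 17.9 for Syt1. Snap25 held 1 region of each class, and Syt1 held 1 male-only and 2 proestrus-only regions. Of the promoters called in all 6 libraries, 10201 of 11403 were higher in the male controls.

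Gene bodies were then ranked by the number of separating regions they hold, a count that grows with the length of the gene. In all, 4110 genes held 1 or more male-only region, 1926 held a proestrus-only region and 362 held both, of 15787 genes with a tested region. Gabbr2, which encodes a subunit of the metabotropic GABA receptor, held the most, with 28 of 82 tested regions, all intronic. Their median fold enrichments in the male controls were 3.82, 3.37 and 3.18. Diestrus controls called 41.7% of these regions and male cocaine libraries 5.36%. The 1 Mb bin that holds it (chr4:46000001-47000000) had more male-only regions than any other bin, 32 of 152. Ptprd, a receptor tyrosine phosphatase of synapses, held 22 of 98, Pde4d, a cyclic AMP phosphodiesterase gene, 19 of 72, and Dab1, an adaptor of reelin signalling, 19 of 101. Mast4, a kinase gene, held 18 of 39, Ptprg 18 of 50 and Ryr2, a calcium release channel gene, 18 of 48. The promoters of these 7 genes were called in all 6 libraries.

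Axon guidance genes held 116 male-only (14.3%) and 4 proestrus-only (0.491%) regions of 814. Male-only regions were present at 30 of the 31 genes, led by Slit3, a secreted guidance ligand, and Unc5d, a netrin receptor, with 14 each of 101 and 37. Synaptic adhesion and scaffold genes held 288 male-only (11.2%) and 48 proestrus-only (1.86%) regions of 2574. Cntn4, a contactin gene, and Nrxn3, a neurexin gene, held 16 male-only regions each, while Dlg4, which encodes the postsynaptic scaffold PSD-95, held 6 proestrus-only and 0 male-only regions of 14. Potassium channel genes held 121 male-only (12.6%) and 21 proestrus-only (2.19%) regions of 960. Kcnb2 and Kcnj6 led with 11 male-only each of 25 and 30. The shares of the adhesion and potassium channel lists lie near those of all tested regions, and so does the male-only share of the axon guidance list.

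Genes of calcium entry and glutamate signalling showed members of both kinds. The calcium and sodium channel list held 4.63% male-only and 3.89% proestrus-only regions of 951, and the ionotropic glutamate receptor list 4.76% and 3.46% of 694, against 12.2% and 2.17% of all tested regions. Cacna2d3, an auxiliary calcium channel subunit gene, held 17 proestrus-only and 1 male-only regions of 220, and Cacna1e, which encodes the R-type channel, 15 and 2 of 132. Cacna2d1, its relative, held 8 male-only and 0 proestrus-only regions of 38. Among metabotropic glutamate receptor genes, Grm5 held 8 proestrus-only and 0 male-only regions of 65, while Grm8 held 8 male-only and 0 proestrus-only regions of 30. Gria1, an AMPA receptor subunit gene, held 7 proestrus-only regions of 87 and 1 male-only. Celf2, an RNA-binding splicing factor gene, held the most proestrus-only regions of any gene, 18 of 176, all intronic, with median fold enrichments of 2.85, 2.73 and 2.89. Cpne5, a calcium-dependent membrane-binding protein gene, held 10 of 34 within 82.6 kb.

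Along the chromosomes the classes had different 1 Mb bins at the top. The bin with most proestrus-only regions was chr10:80000001-81000000, with 33 of 200 tested regions and 0 male-only, and it holds Gpx4, Stk11 and Cirbp among others. The next, chr7:127000001-128000000, had 20 of 129 and again 0 male-only. By chromosome, the proestrus-only share ran from 0.890% on chromosome 3 to 4.91% on chromosome 7, and the male-only share from 6.398% on chromosome 7 to 15.9% on chromosome 13. Chromosome 7 had the highest median GC content of the tested regions, at 49.5%, and chromosome 3 the lowest, at 44.0%.

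**Figure D4:**
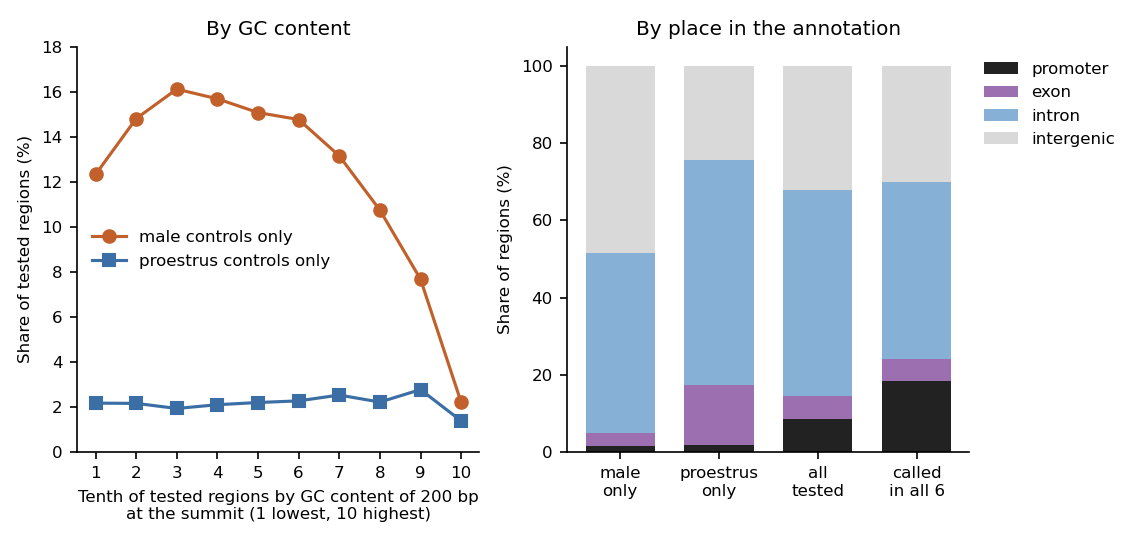
Left, share of tested regions that were male-only (circles) or proestrus-only (squares) by GC content in the 200 bp around the summit, in 10 classes of about equal size from lowest to highest, in percent. Right, share of regions at promoters, exons, introns and between genes for male-only, proestrus-only, all tested and commonly called regions. The male-only share falls to 2.20% in the GC-richest class, and proestrus-only regions have the largest exon share.

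The 2 classes differed in where they lay. Of the male-only regions, 48.5% were intergenic and 1.56% at promoters, with a median of 72.6 kb to the nearest protein-coding start. Of the proestrus-only regions, 24.3% were intergenic, 15.7% exonic and 58.3% intronic, with a median of 17.3 kb. All tested regions had 32.2% intergenic, 6.14% exonic and 39.7 kb. The male-only share was 16.1% among regions of 39.0% to 42.0% GC and 2.20% in the richest of 10 GC classes, while the proestrus-only share stayed between 1.37% and 2.76% throughout. The median region was 491 bp wide among male-only, 640 bp among proestrus-only and 1201 bp among regions called in all 6. Annotated repeats covered 50% or more of 2.37% of male-only, 10.2% of proestrus-only and 3.28% of all tested regions.

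The strongest proestrus-only regions lay largely in repeats. The strongest of all (chr8:4656553-4656885), 43.6 kb from the zinc finger gene Zfp958, had 8.02, 6.96 and 7.01 in the proestrus controls. It was 39.6% repeat and was also called in 10 of the 11 libraries outside the comparison, 1 of them male. Of the 8 with a lowest fold enrichment of 5 or more, 6 were covered by repeats for 50% or more of their length. These 8 were called in male cocaine libraries 1 and 2 in 75% and 87.5% of cases (6 and 7 regions), so the call pattern of the controls did not extend to the other male libraries.

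Motifs were searched on both strands in the 200 bp around each summit, and a match is a description of the letters and not of binding. AP-1 (TGACTCA) was present in 10.7% of male-only, 5.38% of proestrus-only and 9.43% of all tested windows. CAGATG was present in 26.3%, 15.2% and 17.7%, and in 37.5% of the 968 male-only regions with a lowest fold enrichment of 5 or more. This motif was added after the data were seen. The insulator motif of CTCF was rarer in both classes, at 1.39% and 0.398%, than in all tested windows, at 2.45%. The full estrogen response element, GGTCA and TGACC with 3 bases between, was found in 0 male-only, 2 proestrus-only and 15 of all tested windows, too few to compare.

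Over all autosomal peaks of a library, and not over the separating regions alone, the same motifs gave a comparison with the library as the unit. The share of summit windows with AP-1 was 8.67% ± 0.0990 in the male and 7.56% ± 0.111 in the proestrus controls (SD, n = 3 each, exact permutation p = 0.1, adjusted p = 0.28 over 14 measures). NR4A (AGGTCA after AA), bound by orphan receptors of the Nur family, went the other way, at 0.582% ± 0.00522 against 0.771% ± 0.0266 (exact permutation p = 0.1, adjusted p = 0.28). The groups also did not overlap for CTCF (2.18% against 1.87%), MEF2 (1.08% against 0.940%) and the androgen and glucocorticoid element, GNACA and TGTNC with 3 bases between (0.502% against 0.416%), each with exact permutation p = 0.1. The CTCF difference of 0.301 points was 0.139 points when only peaks with a −log10 q of 5 or more were kept (exact permutation p = 0.6) and 0.0508 points with 50 bp on each side of the summit (exact permutation p = 0.8), so that the groups then overlapped. At that −log10 q, the AP-1 difference of 1.11 points was 0.668 and the NR4A difference of −0.189 points was −0.113, both still without overlap. With the 50 bp windows, they were 0.710 and −0.106 points. Mean GC content of summit windows was 46.8% ± 0.762 in the male and 47.7% ± 0.399 in the proestrus controls (SD, n = 3 each, exact permutation p = 0.2), and 8.54% ± 0.437 against 9.39% ± 0.417 of peaks lay at promoters (exact permutation p = 0.2). With equal peak numbers in the 6 libraries, the GC difference fell by more than 1.5 times, from −0.87 to −0.43 percentage points, and the promoter difference from −0.84 to −0.087 points. At a −log10 q of 5 or more they were larger, −1.47 and −3.29 points (exact permutation p = 0.1 each). No measure could pass an adjusted p of 0.05 with 3 libraries a group.

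The 11 libraries outside the comparison show where else the separating regions were called. Their only male libraries are the 2 cocaine libraries, which had the fewest peaks of the series, 86626 and 74532. Sex, treatment and peak number thus cannot be told apart there. Male cocaine libraries called 11.1% (Wilson 95% interval 10.6 to 11.6) and 6.69% of the male-only regions. Proestrus cocaine libraries called 29.7%, 19.002% and 25.6% of them, and diestrus controls 18.02% to 21.9%. The male-only regions were thus called less often in cocaine-treated males than in cocaine-treated proestrus females, by 15.9 percentage points (exact permutation p = 0.1, the smallest that 2 against 3 libraries allow). All tested regions were also called less often there, in 46.2% and 40.3% of cases against 59.0% to 63.5%. With each of 11 libraries held to its 74532 strongest peaks and the regions found anew, the difference was 6.54 points in the same direction (exact permutation p = 0.2). Under that setting too, all tested regions were called less often in the male cocaine libraries. The shares were 64.9% and 61.5% there, against 70.2%, 67.3% and 68.7% in the proestrus cocaine libraries.

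**Figure D5:**
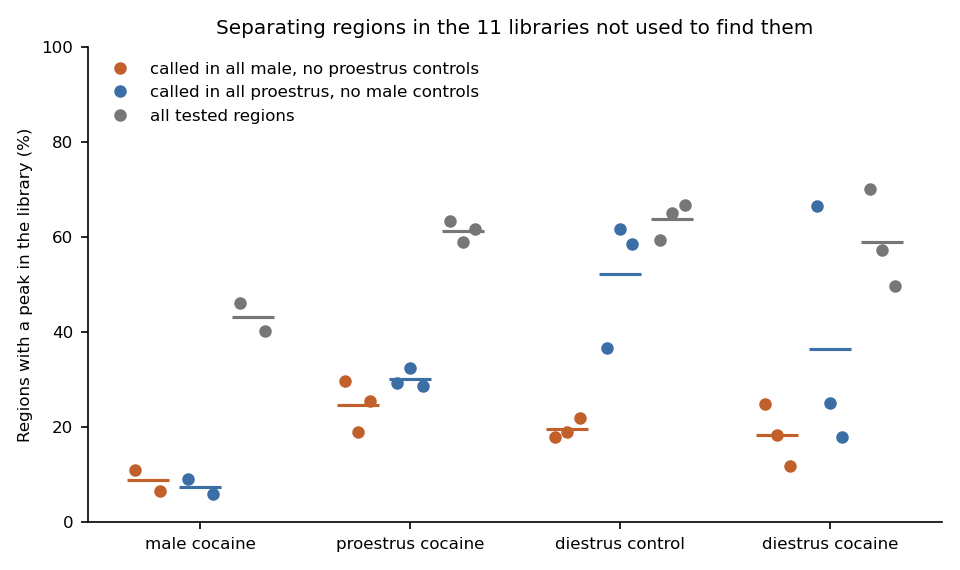
Share of male-only, proestrus-only and all tested regions (colours) that had a peak in each of the 11 libraries not used to find them (vertical axis, percent), by group, with a line at each group's mean. Male cocaine libraries lie lowest for all 3 classes, and diestrus libraries spread most for the proestrus-only regions.

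Proestrus-only regions were called in 9.18% and 5.89% of cases in the male cocaine libraries and in 29.2%, 32.4% and 28.6% in the proestrus cocaine libraries, a difference of 22.5 points (exact permutation p = 0.1). Diestrus controls called 36.6%, 61.6% and 58.5% of them and diestrus cocaine libraries 66.5%, 25.1% and 17.96%, so 3 of 6 diestrus libraries called most of the proestrus-only regions and 3 called a minority. All tested regions were called in 59.5%, 65.1% and 66.8% of cases in the diestrus controls. In the diestrus cocaine libraries the shares were 70.1%, 57.3% and 49.7%. Each of the 6 thus called a smaller share of the proestrus-only regions than of all tested regions. The strong male-only regions kept the order of the proestrus cocaine libraries seen in all male-only regions, with a wider spread. Those with a lowest fold enrichment of 5 or more were called in 39.6% of cases in proestrus cocaine 1 and 34.1% in proestrus cocaine 4, but in 11.5% in proestrus cocaine 2 and in no more than 15.2% in the 8 other libraries.

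Few regions separated the sexes over the whole series. Of the male-only regions, 23 (0.148%) were called in all 5 male libraries and in no female library. The first by strength (chr8:41713532-41714347), printed above, had 8.03, 6.47 and 6.92 in the male controls and 2.40 and 2.91 after cocaine. The second, in an intron of Slc35f4, a solute carrier gene (chr14:49493719-49494333), had 6.88, 6.47 and 5.93 and then 2.73 and 3.37. Of the proestrus-only regions, 139 (5.02%) were called in all 6 proestrus libraries and in no male library, and 37 (1.34%) in all 12 female libraries and no male library. Among the 139, the strongest lay near Gal3st3, a sulfotransferase gene (chr19:5308967-5309440), at 3.70, 4.87 and 4.83 in the proestrus controls, and 1 diestrus cocaine library had no peak there. A region in an intron of Plcxd3, a phospholipase-like gene (chr15:4535071-4535488), had 3.17, 3.71 and 4.27 in the proestrus controls and was called in all 12 female libraries and no male one.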

How the data were processed

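The files hold ATAC-seq peak lists of NeuN-positive nuclei from 17 libraries, of which the 3 male and 3 proestrus controls were compared and the other 11 were used for reference. Per the study's methods, the authors used BWA-MEM for alignment to mm10, and MACS2 gave the peaks of every library separately. The version and options are not given in the sources used here. Each deposited peak carries a fold enrichment (a ratio to background), a score and −log10 values of p and q (deposited per library and not normalized between libraries). The authors' filters on blacklisted regions and shared peaks were applied after peak calling, and no blacklist was used here. All deposited fold enrichments were whole reads of pileup + 1 over background + 1, within a tolerance of 0.05, which gave the background pileup of each library. Read totals were not used here.

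Autosomal peaks were merged where they overlapped by 1 bp, and a region took the highest fold enrichment of its peaks in each library. Regions called in 2 or more libraries of a group were counted as tested. Genes came from GENCODE vM21, sequence from RefSeq GRCm38.p6, and a gene's regions were those with a summit in its body or the 10 kb upstream. With 3 libraries a group, no p-value was given per region. Library measures were compared by two-sided exact permutation tests with Benjamini-Hochberg adjustment over 14 measures. Wilson intervals and limits of a count of 0 (3 counts) cover counting error only. Named genes were the 10 strongest regions and promoters, the 10 genes and the 1 Mb bins with most separating regions, members of 20 lists, and regions shared with cocaine libraries, with exceptions stated, and some of these are not reported here. The members and lists were chosen with earlier results of these data known. Replicates are separate pools of animals per the study's methods. Alternatives were a −log10 q of 5, equal peak numbers, a merge over all libraries, summit windows, other promoter widths and starts, and leaving out each library. Functions were tested on simulated data. Python 3.11.15, pandas 2.3.3, NumPy 2.4.6, SciPy 1.17.1 and matplotlib 3.10.9 were used.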

Additional observations from a re-analysis of the deposited data

Results flagged for a closer look

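The male minus proestrus difference in autosomal peak number was not the same with and without cocaine. It was 17316 peaks in the controls (exact permutation p = 0.1) and −43308 peaks after cocaine (2 male and 3 proestrus libraries, exact permutation p = 0.1), a change of −60624 peaks. The difference between the contrasts was tested by an exact permutation of the sex labels within each treatment, over 200 assignments, and gave p = 0.005, which is the smallest that the design allows. The part of depth in this difference was not tested.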

How the results depend on the processing

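Male-only counts of regions, promoters and cortical markers stayed within 1.5 times under every alternative run. Proestrus-only counts did not: with a −log10 q of 5 or more, regions numbered 762, promoters 18 and medium spiny neuron marker regions 2, and with equal peak numbers promoters numbered 53. Leaving out 1 control library, which loosens the rule to 2 libraries on one side, gave 3242 to 6999 proestrus-only regions, 39 to 78 promoters and 9 to 15 marker regions. These moved by over 1.5 times without male control 1 or any proestrus control for regions, without male control 1 or 3 or proestrus control 1 or 2 for promoters, and without male control 1 or proestrus control 1 or 3 for markers. Rare motifs changed sign (percentage points, male minus proestrus): RFX −0.0169 and NF1 −0.00396 at a −log10 q of 5, CRE 0.00440, NF1 −0.00138 and EGR 0.00743 with equal peak numbers, and NF1 −0.000587 with 50 bp on each side of the summit. Leaving out 1 library moved EBF between −0.0175 and 0.0268 and NF1 between −0.00311 and 0.00415. The cause was not tested. Marker counts under alternatives were chosen after seeing the data. Peak lists without read counts limit what a missing call means.

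Replicates with the same number did not visibly deviate together (correlations −0.038, −0.0093 and 0.00645). Pairs of different number ran from −0.0322 to 0.0385. The check thus gave no sign of pairing by number, and with 3 libraries a group it cannot exclude it. With the number as a replicate block, the difference of 17316 peaks had an exact permutation p = 0.25, the smallest that 3 pairs allow, and no library measure passed 0.05 with or without the block.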
